A study of Danio rerio with 19 samples.

Results

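Of the 19 RNA-seq libraries of this zebrafish series, 6 came from wild-type (WT) larvae and are described here, chosen by their genotype label alone. Each library was made from a single larval head whose eyes had been taken off. The scn1lab WT group (WT1, WT2 and WT3) holds wild-type larvae from crosses between scn1labΔ44/+ fish, which carry a mutant allele of a voltage-gated sodium channel gene. The dyrk1a WT group (WT1, WT2 and WT4) holds wild-type larvae from crosses between dyrk1aaΔ77/+:dyrk1abΔ8/+ fish, which carry mutant alleles of both zebrafish copies of the kinase gene DYRK1A. Larvae within a line were siblings or cousins, no treatment is named, and neither age nor rearing conditions are given in the labels. Heterozygous (HET) heads, 3 from each line, and homozygous (HOM) heads, 3 from the scn1lab line and 4 from the dyrk1a line, were used only to set the same line contrast beside the WT one. The column headers of the scn1lab counts carry the tag Dec8 and those of the dyrk1a counts carry none, and a pair of RNA extraction kits is named without saying which library had which. Line, batch, handling and kit therefore cannot be told apart in any difference between the WT groups. The labels name the tissue as whole brain, but the protocol describes a head, and genes of muscle, skin and cartilage were present in all 6 libraries.

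A larval fish head contains the brain together with skin, jaw and gill cartilage, jaw muscle, pigment cells, blood and immune cells. RNA from the whole head is a mixture of all of them, so in such a bulk library fewer cells of a type and less RNA per cell cannot be told apart. Wild-type siblings are the baseline against which mutants of a line are read. Zebrafish lines kept apart also differ in inherited sequence, and some genes follow the clock, feeding and recent stimulation, so baselines of different lines need not be alike.

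Total counts, in M (mega), were 23.5, 24.7 and 25.2 M in scn1lab WT heads (mean 24.4 ± 0.877, SD, n = 3) and 19.1, 21.9 and 24.2 M in dyrk1a WT heads (mean 21.7 ± 2.56, SD, n = 3). Levels below are counts per M of library (CPM), with library sizes scaled by the trimmed mean of M-values (TMM). Across genes, log2 CPM correlated at 0.899 to 0.926 between scn1lab WT heads, 0.915 to 0.92 between dyrk1a WT heads and 0.811 to 0.887 between heads of different groups. These correlations share every gene and its expression level, and genes are not independent replicates.

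Of 32020 gene IDs, 17539 had at least 10 counts in all 6 heads, 5333 in 1 to 5 of them and 9148 in none. A single head held 20357, 20844 and 20569 such genes in scn1lab WT and 19585, 19755 and 20323 in dyrk1a WT. The 20 genes with the largest mean share took 18.5%, 15.9% and 14.2% of all counts in scn1lab WT heads, and 13.4%, 13.6% and 15.7% in dyrk1a WT heads. A share of counts also scales with transcript length, and no gene lengths were used here.

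The largest share belonged to malat1, a long nuclear non-coding RNA, with 3.59%, 3.34% and 3.22% of counts in scn1lab WT heads and 4.62%, 3.59% and 4.99% in dyrk1a WT heads. The skin keratin krt4 was next, at 2.96%, 1.53% and 2.74% in scn1lab WT and 1.63%, 1.66% and 1.7% in dyrk1a WT. The muscle actin actc1b took 1.27%, 1.34% and 1.02% in scn1lab WT and 0.606%, 0.944% and 1.64% in dyrk1a WT. The ranges of all 3 genes met or overlapped between groups. The remaining 17 of these 20 genes included muscle genes (MYL11, pvalb1, pvalb2, ckma and ckmb), the keratins krt5 and krt1-19e, the prostaglandin D synthase ptgdsb.1, the microtubule regulator STMN1 (ENSDARG00000033655), the glutamine synthetase GLUL and the ribosomal protein genes RPS2 and RPL3. The share of ptgdsb.1 was 0.409%, 0.465% and 0.269% in scn1lab WT heads, against 0.73%, 1.6% and 0.669% in dyrk1a WT heads. GLUL (ENSDARG00000099776), which astroglia use to turn glutamate into glutamine, took 0.242%, 0.329% and 0.368% in scn1lab WT and 0.46%, 0.518% and 0.476% in dyrk1a WT. It did not pass the edgeR test described below (adjusted p = 0.0593). Another GLUL copy, ENSDARG00000100003, overlapped between groups, with 1212, 954 and 983 CPM in scn1lab WT and 1120, 976 and 768 CPM in dyrk1a WT.

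Neurons, glia and non-neural tissues were all represented. The neuronal RNA-binding protein gene ELAVL3 had 377, 273 and 335 CPM in scn1lab WT and 477, 545 and 542 CPM in dyrk1a WT. The myelin gene mbpa had 735, 940 and 725 CPM in scn1lab WT and 982, 767 and 855 CPM in dyrk1a WT. The apolipoprotein gene apoeb, abundant in zebrafish microglia, had 2346, 2538 and 2055 CPM in scn1lab WT and 3666, 3160 and 2533 CPM in dyrk1a WT. All 27 pan-neuronal genes and all 53 oxidative phosphorylation genes listed reached 1 CPM in every head. CRYAA, a crystallin of the lens, had 0 counts in all 6 heads, but other lens genes were present in some. The crystallin gene crygm2d2 had 0.542, 1.81 and 48.2 CPM in scn1lab WT and 84.5, 0 and 1.28 CPM in dyrk1a WT. Of 70 lens genes listed, 4, 5 and 19 reached 1 CPM in scn1lab WT heads and 23, 3 and 11 in dyrk1a WT heads.

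Single heads of the same group differed sharply in genes of a few tissues. Genes of photoreceptors and retina took 0.0525%, 1.53% and 1.19% of counts in scn1lab WT1, WT2 and WT3, against 0.558%, 0.103% and 0.263% in dyrk1a WT1, WT2 and WT4. The cone opsin gene OPN1SW had 3.7, 2292 and 1211 CPM in scn1lab WT heads and 414, 2.61 and 332 CPM in dyrk1a WT heads. The cone opsin gene opn1sw2 had 0.542, 834 and 355 CPM in scn1lab WT heads and 140, 0.753 and 35.5 CPM in dyrk1a WT heads. In both groups, then, some heads held far more opsin RNA than another head of the same group. Of 60 photoreceptor and retina genes averaging at least 1 CPM, 31 had a within-group SD over 2 on the log2(CPM + 1) scale. Pineal photoreceptors use some of the same genes, and the pineal list took 0.0025%, 0.152% and 0.0862% in scn1lab WT heads and 0.028%, 0.00613% and 0.0189% in dyrk1a WT heads.

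Some heart genes, chosen after their values were seen, were at 0 counts in dyrk1a WT1 and WT2 and present in the other 4 heads. Other genes of the endothelium and heart list were not at 0 there, such as actc1a, an actin gene, with 115, 124 and 76.2 CPM in scn1lab WT heads and 19.6, 22.5 and 92.4 CPM in dyrk1a WT heads. The cardiac myosin light chain gene MYL7 had 194, 215 and 136 CPM in scn1lab WT heads, and 0, 0 and 180 CPM in dyrk1a WT heads. The atrial light chain gene cmlc1 had 128, 132 and 73.7 CPM in scn1lab WT and 0, 0 and 82.6 CPM in dyrk1a WT, and the natriuretic peptide gene nppa had 19.8, 33.5 and 18.6 CPM in scn1lab WT and 0, 0 and 31.5 CPM in dyrk1a WT. The same heads were at 0 for scpp5, a secretory phosphoprotein gene expressed in fish teeth, which had 49.7, 53 and 64.1 CPM in scn1lab WT and 0, 0 and 125 CPM in dyrk1a WT. The fin-fold gene and1, which encodes actinodin, had 164, 98.3 and 2.66 CPM in scn1lab WT and 13.4, 357 and 2.81 CPM in dyrk1a WT. Digestive gland genes varied as well. The pancreatic elastase gene ela2l had 65.4, 50.1 and 17.7 CPM in scn1lab WT and 32.3, 0.399 and 310 CPM in dyrk1a WT. The next 2 liver genes varied within each group and did not overlap between groups. The liver fatty acid binding protein gene fabp10a had 248, 895 and 48.4 CPM in scn1lab WT and 6.65, 0.443 and 19.9 CPM in dyrk1a WT (log2 5.46, edgeR adjusted p = 0.121, DESeq2 adjusted p = 0.00316). The apolipoprotein gene apoa2 had 1231, 2376 and 140 CPM in scn1lab WT and 19.5, 3.19 and 93.2 CPM in dyrk1a WT (log2 5.01, edgeR adjusted p = 0.133, DESeq2 adjusted p = 0.00504). Of 54 digestive genes, edgeR called 0 between the groups (18 higher and 4 lower at an unadjusted p under 0.05), while DESeq2 called 17 higher and 1 lower, and edgeR without scn1lab WT3 called 7 higher. Over all 20716 genes tested, edgeR called 9.21%, and 5941 had an unadjusted p under 0.05. Over all genes, DESeq2 called 2100 higher and 1830 lower of 26031, and edgeR without scn1lab WT3 called 590 higher. No lens or pineal gene was called by edgeR or DESeq2, with 0 and 1 at an unadjusted p under 0.05 in edgeR.

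**Figure D1:**
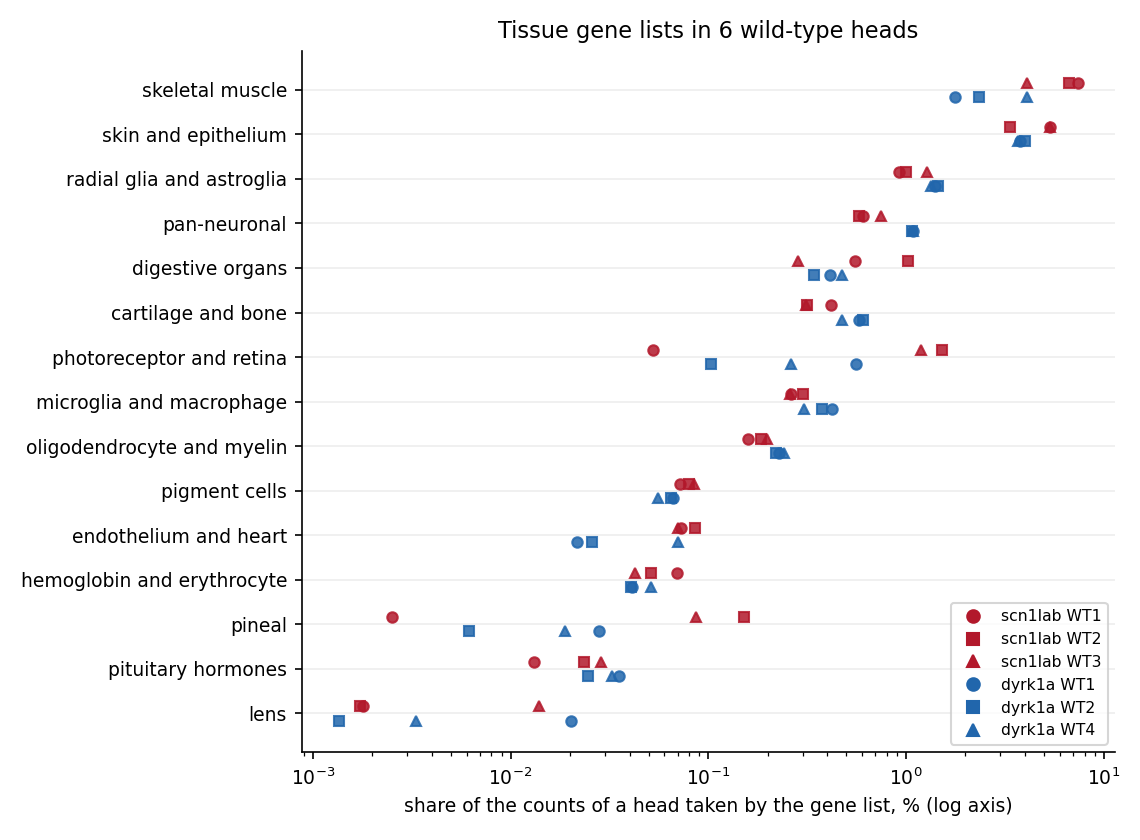
Share of all counts, in % on a log axis, taken by 15 tissue gene lists in each of the 6 WT heads (red, scn1lab WT; blue, dyrk1a WT; marker shape, the head). Photoreceptor, pineal and lens lists spread widely within each group. Digestive genes ran from 0.285% to 1.02% in scn1lab WT and from 0.341% to 0.476% in dyrk1a WT. Their list also holds apoeb, a gene of the microglia list too, with 2346, 2538 and 2055 CPM in scn1lab WT and 3666, 3160 and 2533 CPM in dyrk1a WT. Much of the digestive share in dyrk1a WT was apoeb, and the share without it was not tested. Pan-neuronal genes took 0.576% to 0.748% in scn1lab WT and 1.07% to 1.09% in dyrk1a WT.

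Most genes were steadier than that. Among 19115 genes averaging at least 1 CPM, the median within-group SD was 0.292 on the log2(CPM + 1) scale, 831 (4.35%) were over 1 and 874 were under 0.1. The 10 most variable genes were all of photoreceptors and included opn1mw1, opn1lw2, both copies of PRPH2, GNGT2, ARR3 (ENSDARG00000056511) and pde6ha. With a pseudocount of 0.1 in place of 1, 5 of these 10 stayed among the 10 most variable. THOC2, a subunit of an mRNA export complex, was among the 5 least variable, at 97.3, 96.9 and 97.3 CPM in scn1lab WT and 99.6, 101 and 99 CPM in dyrk1a WT. It differed by a few percent at most among the 6 heads.

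Between the WT groups, 915 of 20716 genes tested were higher in scn1lab WT (4.42%) and 993 were lower (4.79%), at an adjusted p under 0.05 in edgeR's quasi-likelihood test (9.21% in all). The median log2 fold change, scn1lab WT over dyrk1a WT, was 0.03 over all genes tested and 1.13 in size over the 1908 genes called. Of these, 1141 differed by more than 2-fold. None of the 1908 overlapped between groups, and neither did 7575 (36.6%) of all genes tested. Every leave-one-out fit kept fewer calls, by amounts that differed with the head left out. There were 503 higher and 465 lower without scn1lab WT1, 211 and 235 without scn1lab WT2, and 590 and 635 without scn1lab WT3. There were 258 and 241 without dyrk1a WT1, 163 and 142 without dyrk1a WT2, and 389 and 321 without dyrk1a WT4. A fit with 1 head fewer can also lose calls whichever head is left out. In all 6 of these fits 222 genes were called, 106 higher and 116 lower. For some named genes, the number of these 6 fits that called the gene is given below as held in so many of 6. A named gene without this number need not be stable. Among these, COL2A1 (ENSDARG00000069093) and HSP90AB1 held in 0 of 6, and STMN1 (ENSDARG00000033655), CRYAB (ENSDARG00000101380) and AGR2 in 2. Of the 1908 genes called, 623 held in 0. For most lists described, the fewest calls in these fits are given with the head left out. Leaving the genes of the variable tissue lists out of the whole fit, with 20492 genes tested, gave 982 higher and 1034 lower.

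**Figure D2:**
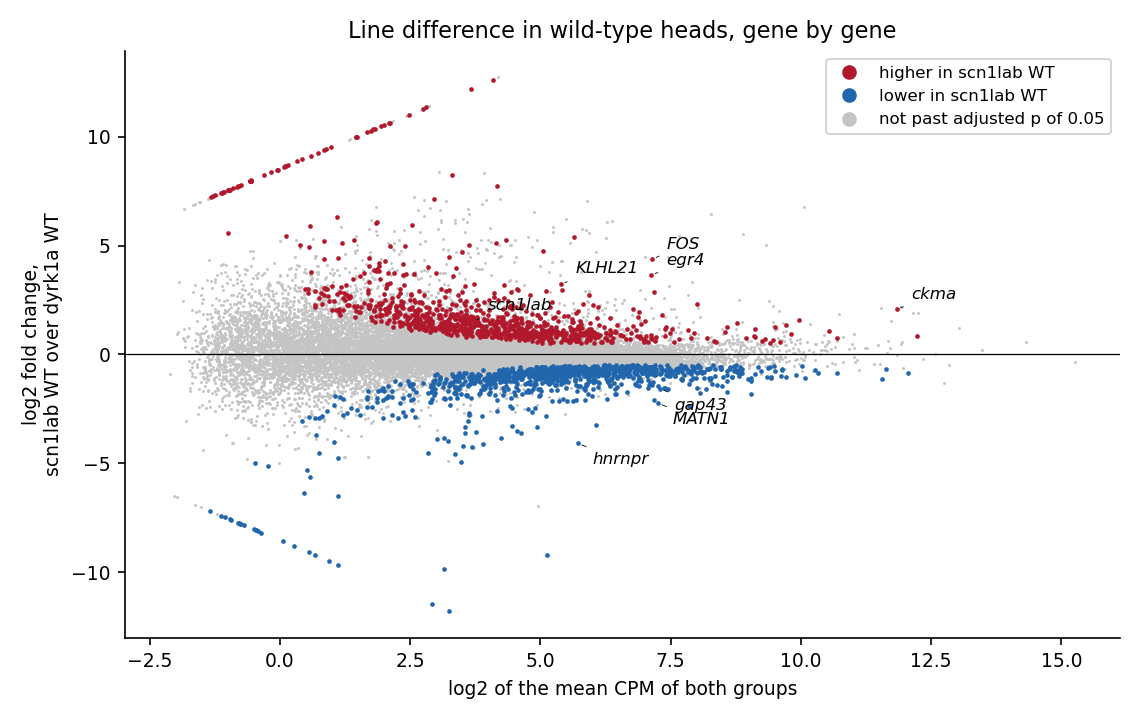
Log2 fold change, scn1lab WT over dyrk1a WT, against the log2 mean CPM of both groups for the 20716 genes tested (red, higher in scn1lab WT; blue, lower; grey, not past an adjusted p of 0.05). The oblique arms at the top and bottom left are genes at 0 in 1 group, whose fitted fold has no fixed size; FOS and egr4 stand among the abundant genes with the largest positive change, and hnrnpr among those with the largest negative one.

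The mutated genes were compared first, although no head here carries a mutation. Counts of scn1lab were 19.4, 17.9 and 21.1 CPM in scn1lab WT and 6.55, 6.29 and 7.18 CPM in dyrk1a WT. The groups did not overlap, and scn1lab was higher in its own line by 1.54 on the log2 scale (SE 0.19, edgeR adjusted p = 0.00818, held in 6 of 6). The same contrast was 1.33 in HET heads (adjusted p = 0.246) and 1.32 in HOM heads (adjusted p = 0.0692). Of the DYRK1A copies, ENSDARG00000023814 had 55.8, 45.3 and 54.5 CPM in scn1lab WT and 42, 39.4 and 43.4 CPM in dyrk1a WT (log2 0.32, adjusted p = 0.181). The other, ENSDARG00000063570, had 18.2, 24.6 and 18.4 CPM in scn1lab WT and 10, 19.8 and 12.6 CPM in dyrk1a WT (log2 0.53, adjusted p = 0.276). Neither copy passed the test.

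The smallest p-value in the table belonged to hnrnpr, a splicing and RNA-binding factor, with 5.96, 5.23 and 6.4 CPM in scn1lab WT and 101, 110 and 87.9 CPM in dyrk1a WT (log2 −4.09, SE 0.17, edgeR adjusted p = 4.2e-04, held in 6 of 6). When all 19 libraries were scaled together, hnrnpr stayed between 2.24 and 18.8 CPM in the 9 scn1lab-line heads and between 77.5 and 120 CPM in the 10 dyrk1a-line heads. Genes chosen after their values were seen, for small p-values like this one, also included PHB2 (ENSDARG00000045297), a mitochondrial prohibitin. It had 37.2, 33.8 and 30.7 CPM in scn1lab WT and 6.02, 5.49 and 5.61 CPM in dyrk1a WT (log2 2.57). Its second copy in the table, ENSDARG00000017728, had 34.3, 41.2 and 20.5 CPM in scn1lab WT and 35.4, 29.3 and 26.7 CPM in dyrk1a WT, so the copies differed in whether they passed. ADGRB1 (ENSDARG00000075133), an adhesion receptor of the brain, had 93.6, 56.2 and 77.6 CPM in scn1lab WT and 10, 10.5 and 8.5 CPM in dyrk1a WT (log2 2.97). Here too the other copy, ENSDARG00000078529, did not pass, with 23.7, 32.2 and 38 CPM in scn1lab WT and 30.5, 36.4 and 37.9 CPM in dyrk1a WT (log2 −0.16).

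Among the 15 genes with the largest fold in each direction, nearly all were at or near 0 in every head of 1 group. Where a group was at 0, the fold is a lower bound for the mean of the other group, against 3 counts in each library. Single heads can lie below it. STAR, which moves cholesterol into mitochondria for steroid synthesis, had 27.1, 41.5 and 8.04 CPM in scn1lab WT and 0 in every dyrk1a WT head, at least 177-fold higher (held in 3 of 6). The same contrast for STAR was 0.01 on the log2 scale in HET heads. The Wnt inhibitor gene dkk2 had 8.13, 3.41 and 7.63 CPM in scn1lab WT and 0 in every dyrk1a WT head, at least 45.6-fold higher and held in 6 of 6. WDR20 (ENSDARG00000041239), a cofactor of deubiquitinating enzymes, had 5.28, 4.64 and 6.7 CPM in scn1lab WT and 0 in dyrk1a WT, at least 39.6-fold higher. The rest of the higher genes were KYAT3 (ENSDARG00000100818), sult3st4, RETSAT, HAO2, fosaa, mbl2, mfap4.7, slc9a3.1, pcyt1bb, L3MBTL3, ftr73 and ovch1. KYAT3, an aminotransferase of kynurenine metabolism, had 30.9, 14.8 and 13.1 CPM in scn1lab WT and 0, 0.177 and 0 CPM in dyrk1a WT. In the other direction, usp16, a histone H2A deubiquitinase, was at 0 in every scn1lab WT head and had 7.91, 30.4 and 7.18 CPM in dyrk1a WT, at least 126-fold lower in scn1lab WT. Its contrast was −0.72 in HET heads and 0.18 in HOM heads. DDIT4, a stress-induced inhibitor of mTOR signalling, averaged 0.597 ± 0.281 CPM in scn1lab WT and 13.8 ± 3.36 CPM in dyrk1a WT (SD, n = 3 each; log2 −4.53, SE 0.45, adjusted p = 0.00475, held in 6 of 6). The rest of the lower genes were itga2.3, znf1069, csf3a, TMCC1, n4bp3, CD180, mep1a.1, or64a1, pcdh1g1, ALOX5 (ENSDARG00000043085), ms4a17a.1, FAIM (ENSDARG00000005828) and CASP6. Many of these were low even where present: CD180 had 0 CPM in scn1lab WT heads and 0.943, 1.2 and 0.991 CPM in dyrk1a WT heads.

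**Figure D3:**
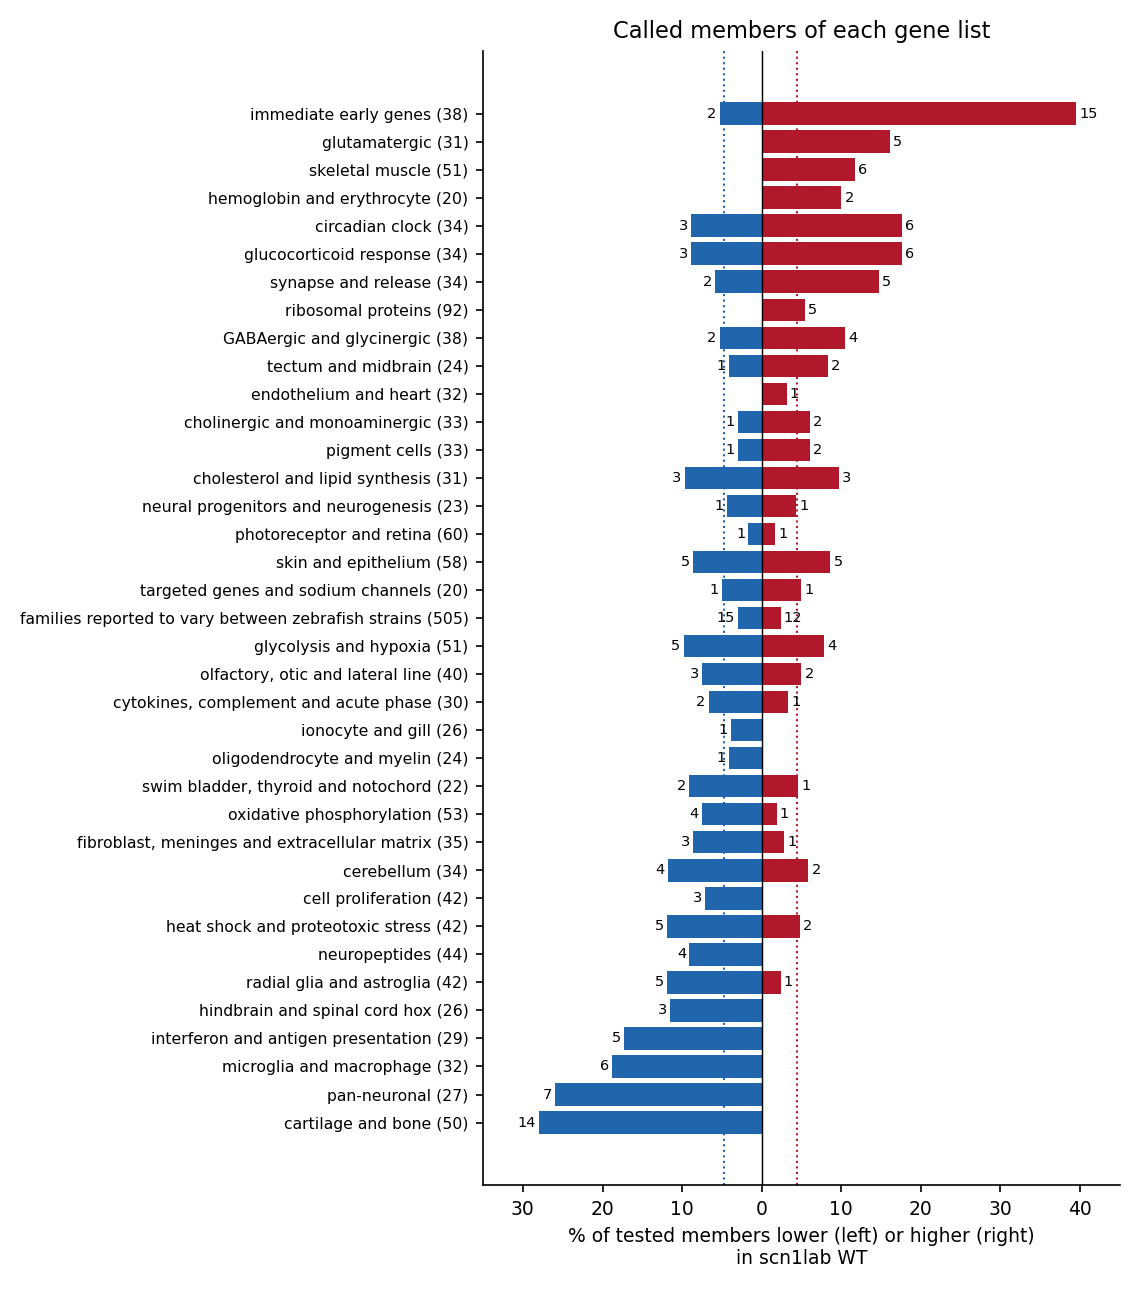
Percent of the tested members of each gene list that were lower (blue, left) or higher (red, right) in scn1lab WT, with the number of genes at each bar, the number tested in brackets and lists with no call left out. Dotted lines mark 4.79% lower and 4.42% higher over all genes tested; immediate early genes lie farthest to the right and cartilage and bone farthest to the left.

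Immediate early genes were the list with the most calls upwards. These genes code mostly for transcription factors and feedback regulators that are switched on within minutes of neuronal firing, growth factors or stress. Of 38 tested, 15 were higher in scn1lab WT (39.5%) and 2 were lower (5.26%), with a median log2 change of 1.07. Over all genes tested, 4.42% were higher and 4.79% lower, the shares to set beside the lists below. Without single heads, 8 to 13 were higher, fewest without dyrk1a WT2, and 1 or 2 were lower. The list took 0.337%, 0.277% and 0.366% of counts in scn1lab WT heads and 0.216%, 0.208% and 0.205% in dyrk1a WT heads.

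Transcription factors of the list had some of the largest changes. Counts of egr4 were 229, 176 and 373 CPM in scn1lab WT and 18.6, 23.1 and 21.1 CPM in dyrk1a WT (log2 3.63, SE 0.30, edgeR adjusted p = 0.00328, held in 6 of 6). NPAS4 (ENSDARG00000055752), which neurons induce on calcium entry, had 21, 9.61 and 28.3 CPM in scn1lab WT and 1.36, 0.93 and 1.49 CPM in dyrk1a WT (log2 3.96, SE 0.46). FOS, which forms the AP-1 factor with Jun proteins, was not in the list under this symbol and was added after its values were seen. It had 304, 153 and 355 CPM in scn1lab WT and 11.9, 12.7 and 14.5 CPM in dyrk1a WT (log2 4.37, SE 0.34, adjusted p = 0.00328). Its relative fosaa had 2.12, 1.85 and 3.55 CPM in scn1lab WT and 0 in every dyrk1a WT head, at least 18.1-fold higher. Both copies of JUNB were higher in scn1lab WT, ENSDARG00000104773 by 1.82 and ENSDARG00000074378 by 1.91 on the log2 scale. Counts of egr1 were 121, 76.9 and 111 CPM in scn1lab WT and 36.8, 28.3 and 31.7 CPM in dyrk1a WT (log2 1.68, SE 0.21). In all of these, scn1lab WT2 was the lowest of its group and still above every dyrk1a WT head, except for JUNB ENSDARG00000074378, in which scn1lab WT1 was lowest.

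Other early genes moved the same way. ier2a had 307, 167 and 290 CPM in scn1lab WT and 39.4, 30 and 36.4 CPM in dyrk1a WT (log2 2.85, SE 0.26), and ier2b changed by the same 2.85. The antiproliferative gene BTG2 had 202, 119 and 210 CPM in scn1lab WT and 42.6, 39.5 and 44.2 CPM in dyrk1a WT (log2 2.07, SE 0.23, adjusted p = 0.00671). DUSP1, a phosphatase that shuts off MAP kinases, was higher by 1.38 (held in 4 of 6). SOCS3 (ENSDARG00000025428), an inhibitor of cytokine signalling, was higher by 2.49 but held in 1 of 6. Its other copy, ENSDARG00000026611, overlapped between groups. With all 19 libraries scaled together, that copy averaged 34.3 CPM in scn1lab WT and 35.4 CPM in dyrk1a WT. IER5, JUND, DUSP2 and FOSL1 were also higher, by 0.72, 1.01, 1.70 and 2.48, each held in 3 of 6 fits or fewer. The lower members were BDNF and klf2a. BDNF, the neurotrophin that neuronal activity induces in mammals, had 7.54, 7.38 and 5.8 CPM in scn1lab WT and 38.3, 30.6 and 38 CPM in dyrk1a WT (log2 −2.37, SE 0.20, adjusted p = 0.00328, held in 6 of 6).

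The median line difference of the early genes was 0.21 in HET heads and 0.03 in HOM heads, against 1.07 in WT heads. None of 35 tested was called in HET heads, where 0.0635% of all genes were called higher and 0.0684% lower, and 3 were higher and 3 lower of 37 tested in HOM heads, where the shares over all genes were 7.51% and 9.56%. With all 19 libraries scaled together, egr4 had 200, 152 and 327 CPM in scn1lab WT heads, 14.4, 7.13 and 9.01 CPM in scn1lab HET heads and 4.63, 3.57 and 7.55 CPM in scn1lab HOM heads, and 9.23 to 28 CPM in the 10 heads of the dyrk1a line. FOS had 265, 133 and 311 CPM in scn1lab WT heads and 6.09 to 32.5 CPM in the 6 mutant heads of that line. The 3 scn1lab WT heads thus stood above all other 16 heads of the series for both genes. For BDNF the line difference was −1.08 in HET heads and −3.01 in HOM heads, on the same side as in WT heads.

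**Figure D4:**
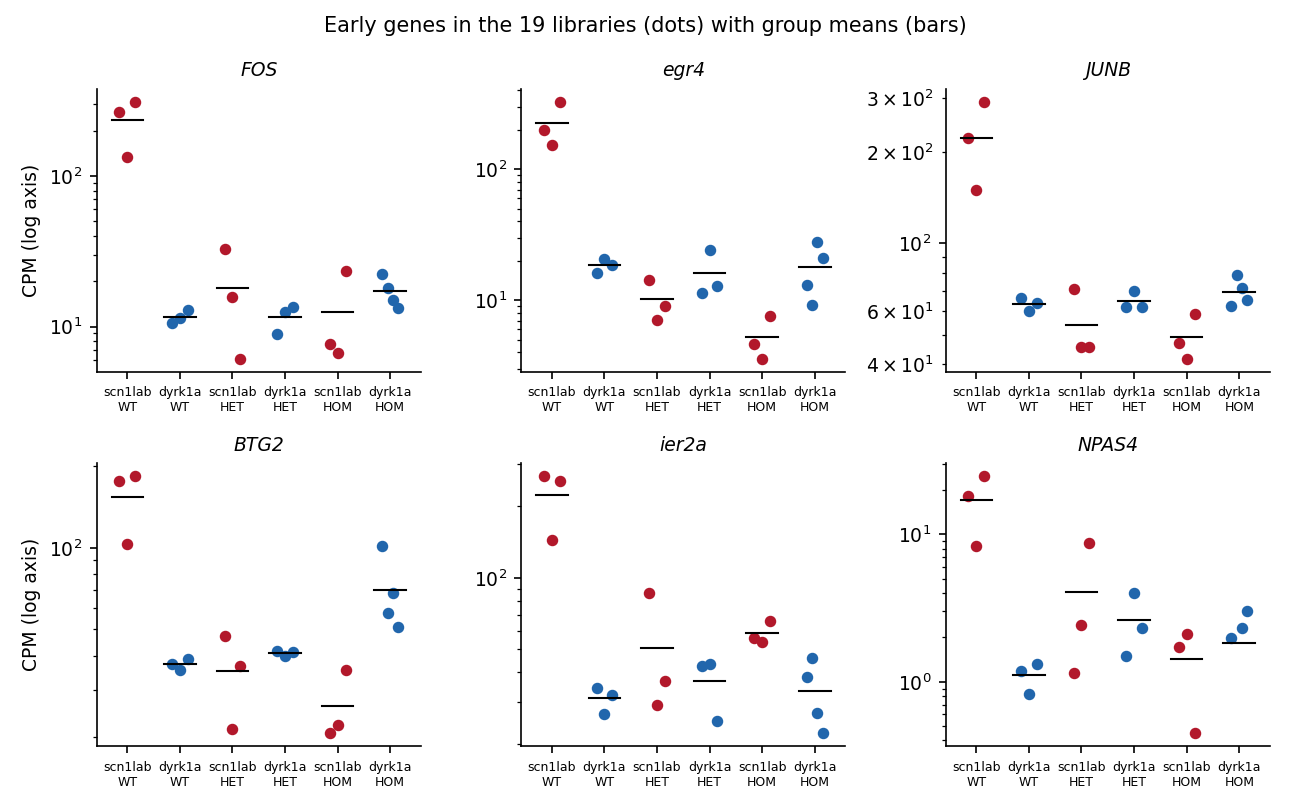
CPM on a log axis of FOS, egr4, JUNB (ENSDARG00000104773), BTG2, ier2a and NPAS4 (ENSDARG00000055752) in each of the 19 libraries (dots; red, scn1lab line; blue, dyrk1a line), all scaled together, with group means as bars and a 0 not drawn on the log axis. In each panel the scn1lab WT mean is the highest, and in all but NPAS4 the 3 scn1lab WT heads lie above the other 16.

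Whether the WT line difference differed from that in the other genotypes was tested for every gene in 1 edgeR fit of all 19 libraries, added after the data were seen. Of 22488 genes, 1 differed from HET (0.00445%) and 6 differed from HOM (0.0267%), and 1377 and 2428 genes had an unadjusted p under 0.05. Without 1 WT head, 0 genes differed from HET when scn1lab WT1, dyrk1a WT1 or dyrk1a WT4 was left out, 2 without scn1lab WT2 and 7 without dyrk1a WT2, and 3 to 8 differed from HOM, 3 without dyrk1a WT1 or dyrk1a WT4. Against HET the gene was egr4, by 4.27 on the log2 scale (SE 0.61, adjusted p = 0.0488, held in 2 of 6 leave-one-out fits, with p between 0.0169 and 0.215). Against HOM, 4 of the 6 were early genes: egr4 by 5.38 (SE 0.62, adjusted p = 0.00241), BTG2 by 3.47 (SE 0.44, adjusted p = 0.00451), JUNB (ENSDARG00000104773) by 2.3 (SE 0.32, adjusted p = 0.00894) and FOS by 4.81 (SE 0.74, adjusted p = 0.0278). The first 3 held in 6 of 6 fits and FOS in 1 of 6. The others were zgc:122979, with a difference of 4.1 (SE 0.57, adjusted p = 0.00894), and the annexin gene anxa1c, with −2.42 (SE 0.38, adjusted p = 0.0286, held in 0 of 6).

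Every pan-neuronal gene that was called was lower in scn1lab WT. Of 27 tested, 7 were lower (25.9%, against 4.79% over all genes) and 0 were higher, with a median log2 change of −0.62. Without single heads, 1 to 7 were lower, and 1 was left without scn1lab WT2, dyrk1a WT1, dyrk1a WT2 or dyrk1a WT4. The list took 0.605%, 0.576% and 0.748% of counts in scn1lab WT and 1.08%, 1.07% and 1.09% in dyrk1a WT, and skeletal muscle genes took 7.45%, 6.71% and 4.11% in scn1lab WT and 1.77%, 2.34% and 4.08% in dyrk1a WT. The part of tissue makeup in these changes was not tested. The growth cone gene gap43 had 85.1, 69.4 and 83 CPM in scn1lab WT and 228, 229 and 252 CPM in dyrk1a WT (log2 −1.58, SE 0.14, edgeR adjusted p = 0.00372, held in 6 of 6). STMN1 (ENSDARG00000033655) had 2842, 3125 and 3216 CPM in scn1lab WT and 5666, 5286 and 5451 CPM in dyrk1a WT (log2 −0.84, SE 0.13, adjusted p = 0.0164). The microtubule genes tuba1c and MAP1B fell by 0.89 and 0.86, both copies of STMN2 by 0.81 and 0.64, and ELAVL3 by 0.67, each held in 1 of 6 fits or none. In HET heads 2 of 27 were lower, with a median of −1.16, where 0.0684% of all genes were called lower. In HOM heads 24 of 27 were lower, with a median of −1.80, where 9.56% of all genes were called lower.

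Synaptic genes were called both ways, with the lower ones near the share over all genes. Of 34 genes of synapse and release, 5 were higher (14.7%) and 2 were lower (5.88%), with a median of 0.00. Over all genes, 4.42% were higher and 4.79% lower. Only 1 was higher without dyrk1a WT2, and 0 were lower in every leave-one-out fit but that without scn1lab WT3. The adhesion gene NRXN3, which organizes synapses from the axon side, had 81.7, 60.4 and 78.7 CPM in scn1lab WT and 28.2, 21.1 and 22.5 CPM in dyrk1a WT (log2 1.62, SE 0.18, edgeR adjusted p = 0.00695, held in 6 of 6). Its postsynaptic partner NLGN1 was higher by 1.85 (held in 5 of 6) and the scaffold SHANK3 by 1.79 (held in 0 of 6), and nrxn2a and CPLX3 (ENSDARG00000089486) were higher by 0.79 and 2.28. The vesicle fusion gene SNAP25 (ENSDARG00000020609) fell by 0.70, held in 1 of 6.

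Among 31 glutamatergic genes 5 were higher (16.1%, against 4.42% over all genes) and 0 were lower (median 0.44). GRIA2 (ENSDARG00000070173), an AMPA receptor subunit, had 23, 21.9 and 37.6 CPM in scn1lab WT and 3.88, 5.8 and 5.04 CPM in dyrk1a WT (log2 2.49, SE 0.29, edgeR adjusted p = 0.00724, held in 6 of 6). Its line difference was 2.51 in HET and 1.52 in HOM heads. The more abundant GRIA2 copy, ENSDARG00000052765, had 110, 79 and 119 CPM in scn1lab WT and 91, 120 and 114 CPM in dyrk1a WT. That copy overlapped between groups and did not pass (log2 −0.08, edgeR adjusted p = 0.82). GRIN2A, GRIA3 (ENSDARG00000037498) and GRIK2 were higher by 1.47, 1.41 and 1.21, held in 4, 0 and 1 of 6. Without dyrk1a WT2, 1 glutamatergic gene was called. Of 38 GABAergic and glycinergic genes, 4 were higher (10.5%) and 2 were lower (5.26%, near the 4.79% over all genes), with a median of 0.01. The metabotropic receptor genes GABBR2 and GABBR1 were higher by 2.17 and 2.76, held in 5 and 4 of 6. ABAT, which breaks GABA down, had 184, 179 and 176 CPM in scn1lab WT and 628, 742 and 399 CPM in dyrk1a WT (log2 −1.71, SE 0.23, adjusted p = 0.0101, held in 6 of 6). CALB2, a calcium-binding protein of interneurons, fell by 1.09. The number higher was 1 without dyrk1a WT1 or dyrk1a WT2, and the number lower was 1 without scn1lab WT1, scn1lab WT2, dyrk1a WT2 or dyrk1a WT4.

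Of 44 neuropeptide genes 4 were lower (9.09%, against 4.79% over all genes) and 0 higher, with a median of −0.55. The granin gene chga, a secretory vesicle protein, had 63.5, 94 and 96.6 CPM in scn1lab WT and 202, 281 and 265 CPM in dyrk1a WT (log2 −1.56, SE 0.21, edgeR adjusted p = 0.0108, held in 6 of 6). The peptide genes cart4, penka and pmchl fell by 1.71, 1.44 and 0.74, held in 3, 1 and 1 of 6. The line difference of pmchl was 1.76 in HET heads (adjusted p = 0.396) and −3.04 in HOM heads (adjusted p = 0.00056). Leaving out dyrk1a WT1 or dyrk1a WT2 left 1 lower gene, and the median was −0.34 without scn1lab WT1. Of the brain-region lists, telencephalon and diencephalon had 0 of 38 called in edgeR (median −0.13; 1 higher and 1 lower at an unadjusted p under 0.05, and 1 higher in DESeq2). Cerebellum had 2 higher (5.88%) and 4 lower (11.8%) of 34, and 0 in either direction without dyrk1a WT1 or dyrk1a WT2. Tectum and midbrain had 2 higher (8.33%) and 1 lower (4.17%) of 24. Over all genes, 4.42% were higher and 4.79% lower. The Wnt effector gene LEF1 had 67.4, 31.8 and 45.4 CPM in scn1lab WT and 7.33, 6.11 and 8.59 CPM in dyrk1a WT (log2 2.71, SE 0.30, held in 6 of 6). POU4F1, a factor of sensory and tectal neurons, had 9.21, 14.2 and 4 CPM in scn1lab WT and 58.2, 48.8 and 44.9 CPM in dyrk1a WT (log2 −2.47, held in 2 of 6). Of 26 hox genes, which mark hindbrain and spinal cord, 3 were lower (11.5%) and 0 higher. The 3 were HOXA3 and both copies of HOXB5, and 0 were lower without scn1lab WT2 or dyrk1a WT2.

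Radial glia and astroglia, the stem-like glia of the fish brain, had 5 of 42 genes lower (11.9%) and 1 higher (2.38%). Over all genes, 4.79% were lower and 4.42% higher. The list had a median of −0.21. That median was −0.01 without scn1lab WT2, −0.09 without scn1lab WT1, dyrk1a WT1 or dyrk1a WT2, and −0.33 without scn1lab WT3. The stem cell factor SOX2 had 14, 24.5 and 11.8 CPM in scn1lab WT and 86.6, 80.2 and 41.1 CPM in dyrk1a WT (log2 −2.05, SE 0.38, edgeR adjusted p = 0.0258, held in 2 of 6). FABP7 (ENSDARG00000007697), SOX3, HEPACAM (ENSDARG00000056934) and her4.1 fell by 0.98, 0.84, 0.85 and 0.76, and the glutamate transporter SLC1A3 (ENSDARG00000104431) was higher by 0.67. Other radial glia markers did not fall clearly. GFAP had 25.2, 22.5 and 30.5 CPM in scn1lab WT and 14.1, 9.08 and 21.4 CPM in dyrk1a WT (log2 0.81, edgeR adjusted p = 0.14). The second FABP7 copy, ENSDARG00000034650, changed by 0.49 and the SLC1A2 copies by 2.67 and −0.02, and none of these passed. Of the 42 genes, 19 had a positive change. No glial gene was lower without dyrk1a WT1 or dyrk1a WT2. Proliferation genes had a median of −0.64 and a share of 0.423%, 0.423% and 0.466% in scn1lab WT and 0.822%, 0.715% and 0.685% in dyrk1a WT. Most of this share was STMN1 (ENSDARG00000033655), with 0.268%, 0.301% and 0.341% in scn1lab WT and 0.567%, 0.545% and 0.546% in dyrk1a WT. STMN1 also counts in the pan-neuronal share above, and the proliferation share without it was not tested. Of 42 proliferation genes tested, 3 were lower (hmgb2b, FEN1 and STMN1) and 0 higher. That is 7.14% lower, against 4.79% over all genes. In the leave-one-out fits 0 or 1 was lower, and the median was −0.09 without dyrk1a WT1 and −0.86 to −0.45 without any other head. The myelin list had 1 of 24 lower, pmp22a, and 0 higher, and this 4.17% is near the 4.79% over all genes.

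Cartilage and bone genes had the largest share of calls downwards, 28%. Of 50 tested, 14 were lower in scn1lab WT and 0 were higher, with a median of −0.46. Without single heads, 3 to 11 were lower, fewest without dyrk1a WT2. The list took 0.419%, 0.316% and 0.312% of counts in scn1lab WT and 0.58%, 0.604% and 0.472% in dyrk1a WT. Matrix proteins of cartilage led. MATN1, a matrilin that links collagen fibrils, had 56.2, 54.1 and 48.9 CPM in scn1lab WT and 295, 288 and 176 CPM in dyrk1a WT (log2 −2.25, SE 0.22, edgeR adjusted p = 0.00449, held in 6 of 6). The chondrocyte proteoglycan gene snorc had 16.1, 14.6 and 10.3 CPM in scn1lab WT and 67, 57.9 and 56.8 CPM in dyrk1a WT (log2 −2.15, SE 0.20). COL11A2, a fibrillar collagen of cartilage, had 29.4, 33.3 and 29.4 CPM in scn1lab WT and 158, 134 and 83.7 CPM in dyrk1a WT (log2 −2.03, SE 0.24). These 3 held in 6 of 6. Both copies of the main cartilage collagen COL2A1 were lower, ENSDARG00000011407 by −1.80 and ENSDARG00000069093 by −0.68 on the log2 scale. The collagens COL9A1, COL9A2 and COL10A1 (ENSDARG00000054753) fell by 1.28, 0.92 and 1.38, and cnmd, epyc, spp1, PHEX, MATN4 and ihha completed the 14. In HET heads the median was −0.24 with 0 of 51 called, where 0.0635% of all genes were called higher and 0.0684% lower. In HOM heads the median was −0.40 with 7 lower and 2 higher of 51. Over all genes in HOM heads, 9.56% were called lower and 7.51% higher. For MATN1 the line difference was −3.47 in HET and −3.87 in HOM heads, and neither passed the test.

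Members of the microglia and interferon lists that were called were lower in scn1lab WT. Of 32 microglia and macrophage genes, 6 were lower (18.8%, against 4.79% over all genes) and 0 higher. The list had a median of −0.56, and without dyrk1a WT2 1 was lower. The leukocyte actin-bundling gene LCP1 had 19.6, 19.4 and 22.1 CPM in scn1lab WT and 51.8, 54.7 and 47.7 CPM in dyrk1a WT (log2 −1.34, SE 0.14, edgeR adjusted p = 0.00562, held in 6 of 6). The myeloid transcription factor SPI1, the complement gene c1qb and lgals9l1 fell by 1.25, 1.95 and 1.55. The antigen presentation chaperones cd74a and cd74b fell by 2.06 and 1.13 and count in the interferon and antigen presentation list too. In that list 5 of 29 were lower (17.2%) and 0 higher (median −0.38). None of the interferon list was lower without dyrk1a WT2, and its median was −0.69 without scn1lab WT2 and −0.12 to −0.17 without scn1lab WT1, scn1lab WT3, dyrk1a WT1 or dyrk1a WT4. The receptor gene csf1ra, of the macrophage and pigment lineages, had 7.36, 7.29 and 8.23 CPM in scn1lab WT and 0, 1.64 and 1.77 CPM in dyrk1a WT (log2 2.73), did not overlap and did not pass in edgeR (adjusted p = 0.143, DESeq2 adjusted p = 0.0182). Of 30 genes of cytokines, complement and acute phase, 1 was higher (SOCS3 ENSDARG00000025428, 3.33%) and 2 were lower (csf3a and nfkb2, 6.67%), with a median of 0.35. Over all genes, 4.42% were higher. Other immune genes were called higher, mbl2 and mhc1zda among them. The median of the microglia list was −0.07 in HET and 0.17 in HOM heads.

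Clock genes were called in both directions, 6 higher (17.6%) and 3 lower (8.82%) of 34. Over all genes, 4.42% were higher and 4.79% lower. In the molecular clock, activators and repressors peak at different times of day, and the time of collection is not given. The nuclear receptor NR1D2, a repressor of the clock, had 42.2, 42.5 and 59.9 CPM in scn1lab WT and 15.3, 11.5 and 14.9 CPM in dyrk1a WT (log2 1.79, SE 0.21, edgeR adjusted p = 0.00711, held in 6 of 6). Its line difference was 2.04 in HET and 1.92 in HOM heads. The activator npas2, the cryptochrome cry3a, and hlfa, nfil3-5 and rorca were higher by 3.62, 1.28, 1.68, 1.70 and 2.25. The repressor ciarta had 49.5, 36 and 43.2 CPM in scn1lab WT and 132, 142 and 120 CPM in dyrk1a WT (log2 −1.61, SE 0.16, adjusted p = 0.00475, held in 6 of 6), with −1.25 in HET and −1.11 in HOM heads. HSF2, a heat shock factor counted in this list, and tefa fell by 1.13 and 0.50. The number higher was 1 without scn1lab WT2 or dyrk1a WT2.

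Genes of the glucocorticoid response were also split, 6 higher (17.6%) and 3 lower (8.82%) of 34. Over all genes, 4.42% were higher and 4.79% lower. Only 1 was higher without dyrk1a WT2, and 1 lower without scn1lab WT2. The factor CEBPB had 90.7, 70.8 and 92.9 CPM in scn1lab WT and 21, 24.6 and 18.8 CPM in dyrk1a WT (log2 1.98, SE 0.17, edgeR adjusted p = 0.00372, held in 6 of 6). HSD11B2, which inactivates cortisol, pck2 and zbtb16b were higher by 1.92, 1.36 and 1.2, beside STAR and DUSP1 above. The mitochondrial kinase PDK2 (ENSDARG00000059054) had 292, 205 and 198 CPM in scn1lab WT and 1111, 723 and 635 CPM in dyrk1a WT (log2 −1.83, SE 0.26, held in 5 of 6), and ZBTB16 fell by 0.95. Of 42 heat shock and proteotoxic stress genes, 5 were lower (11.9%) and 2 higher (4.76%, near the share over all genes). The endoplasmic reticulum chaperones HSPA5 and HSP90B1 fell by 1.12 and 1.11, CRYAB (ENSDARG00000101380) by 2.18 and HSP90AB1 by 0.69, with DDIT4 as the fifth, while GADD45B (ENSDARG00000027744) and CHAC1 were higher by 0.98 and 0.99. Without dyrk1a WT1 or dyrk1a WT2, 1 was lower and 1 higher.

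Metabolic lists had calls in both directions. Of 51 genes of glycolysis and hypoxia, 5 were lower (9.8%) and 4 higher (7.84%), with a median of 0.01. In the fits without scn1lab WT2, dyrk1a WT1 or dyrk1a WT2, 2 were lower and 1 higher. GAPDHS had 1744, 1830 and 2066 CPM in scn1lab WT and 4283, 4227 and 3988 CPM in dyrk1a WT (log2 −1.15, SE 0.14, edgeR adjusted p = 0.00752, held in 6 of 6). PFKP (ENSDARG00000028000), a phosphofructokinase, had 73.8, 58.1 and 73.1 CPM in scn1lab WT and 187, 203 and 206 CPM in dyrk1a WT (log2 −1.54, SE 0.15). Their line differences were −2.10 and −2.88 in HET heads, where neither passed, and −2.17 and −2.64 in HOM heads, where both did. Both copies of ALDOC fell as well, by 0.85 and 0.83, while the muscle aldolase ALDOA (ENSDARG00000034470) was higher by 1.15. The mitophagy gene BNIP3 was higher by 1.62. Of 53 oxidative phosphorylation genes 4 were lower (7.55%, against 4.79% over all genes) and 1 higher (1.89%, against 4.42%). In every leave-one-out fit but that without dyrk1a WT2, 1 was lower. Of 31 cholesterol and lipid synthesis genes 3 were higher and 3 lower (9.68% each), and 0 in either direction without scn1lab WT2 or dyrk1a WT2. Among the higher ones was the lipoprotein receptor gene ldlra, with 47.7, 47.2 and 30.8 CPM in scn1lab WT and 16.5, 16.2 and 13 CPM in dyrk1a WT (log2 1.46, SE 0.22). Ribosomal protein genes had a median of 0.40, with 86 of 92 positive, 5 higher (5.43%, against 4.42% over all genes) and 0 lower. The 5 were RPL22L1, RPS23, RPL36, RPL30 and RPS18, and 0 to 12 were higher without single heads, with 0 without scn1lab WT2, dyrk1a WT1, dyrk1a WT2 or dyrk1a WT4.

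Skeletal muscle genes had a median of 0.67, with 43 of 51 positive, 6 higher (11.8%, against 4.42% over all genes) and 0 lower. The creatine kinase gene ckma had 8053, 6605 and 3138 CPM in scn1lab WT and 1074, 1210 and 1950 CPM in dyrk1a WT (log2 2.07, SE 0.39, edgeR adjusted p = 0.0277, held in 2 of 6). The calcium pump gene atp2a1 had 1727, 1647 and 1090 CPM in scn1lab WT and 367, 523 and 622 CPM in dyrk1a WT (log2 1.56, SE 0.26, held in 4 of 6). The calcium channels CACNA1S (ENSDARG00000029457) and RYR1 (ENSDARG00000023797) were higher by 2.43 and 1.36. The list gave between 0 and 12 higher genes without single heads, 0 without scn1lab WT2 or dyrk1a WT2, and scn1lab WT3 and dyrk1a WT4 had nearly the same share, 4.11% and 4.08%. Skin and epithelium had 5 higher and 5 lower of 58 (8.62% each, against 4.42% and 4.79% over all genes). There were 0 in either direction without dyrk1a WT1 or dyrk1a WT2 and 0 lower without scn1lab WT2. The keratins krt91 and krt92, the junction genes PERP and cldn1, and cyt1l were the higher ones, and the secretory genes agr1 and AGR2, the adhesion genes epcam and DSP (ENSDARG00000022309), and anxa1c were the lower ones.

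Some gene families are reported to vary in copy number or sequence between zebrafish strains, such as those of NLR, MHC, zinc finger, olfactory receptor and clustered protocadherin genes. Of 505 such genes tested 12 were higher and 15 lower, which is 2.38% and 2.97% against 4.42% and 4.79% over all genes. Leaving out 1 head gave 3 to 8 higher, 3 without scn1lab WT2, dyrk1a WT1 or dyrk1a WT2, and 2 to 10 lower, 2 without dyrk1a WT2 or dyrk1a WT4. The MHC class I gene mhc1zda had 53, 45.3 and 83.4 CPM in scn1lab WT and 7.23, 9.57 and 7.51 CPM in dyrk1a WT (log2 2.90, SE 0.27, edgeR adjusted p = 0.00424, held in 6 of 6). The protocadherin gene pcdh2g28 had 161, 154 and 156 CPM in scn1lab WT and 50.1, 75.9 and 65.7 CPM in dyrk1a WT (log2 1.3, SE 0.17, held in 6 of 6). Another MHC class I gene, mhc1zba, fell by 0.86 in WT heads, and its line difference was 1.97 in HET heads (adjusted p = 0.272) and 1.06 in HOM heads (adjusted p = 0.0607). Reads of such near-identical genes can be split between copies, so these values are uncertain.

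The remaining lists had few calls, 2 or fewer in each direction unless stated. The fibroblast and matrix list had 3 lower and 1 higher of 35 (NDRG1 ENSDARG00000032849, higher by 2.18 and held in 6 of 6), and the olfactory, otic and lateral line list 3 lower and 2 higher of 40. The lower genes were 8.57% and 7.5% of these lists, against 4.79% over all genes. Neither list had a lower gene without scn1lab WT2, dyrk1a WT1, dyrk1a WT2 or dyrk1a WT4. The caveolin gene CAV1, listed with swim bladder, thyroid and notochord, had 151, 99 and 120 CPM in scn1lab WT and 44.5, 32.2 and 41.1 CPM in dyrk1a WT (log2 1.65, SE 0.20, held in 6 of 6). PHOX2A, a factor of noradrenergic neurons, had 4.65, 7.21 and 8.75 CPM in scn1lab WT and 24.8, 24.5 and 37.8 CPM in dyrk1a WT (log2 −2.08, SE 0.30, held in 6 of 6). Pituitary hormones and the neutrophil, T cell and thymus list had 0 calls in edgeR, with 1 higher and 2 lower each at an unadjusted p under 0.05, and DESeq2 called 1 higher in each and 2 lower among the pituitary genes. As a share of counts, 17 of 43 lists did not overlap between groups, 3 higher and 14 lower in scn1lab WT. Among single genes tested, 36.6% did not overlap either. Lists also share members, such as STMN1 (ENSDARG00000033655) and COL2A1 (ENSDARG00000069093), so the 17 are not separate results. With 3 heads against 3, an exact two-sided permutation test cannot go below p = 0.1, and after adjustment over the 43 lists the smallest p was 0.253.

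Most genes called in WT heads leaned the same way in the other genotypes, which share no library with the WT comparison but do share the line and its handling. Of the genes higher in scn1lab WT, 813 of 890 tested were also positive in HET heads (91.3%, against 53.6% of all genes) and 781 of 880 in HOM heads (88.8%, against 53.5%). Of the genes lower in scn1lab WT, 938 of 985 were negative in HET heads (95.2%, against 46.4%) and 898 of 986 in HOM heads (91.1%, against 46.5%). The median log2 change of the higher genes was 1.12 in HET and 1.01 in HOM heads, and that of the lower genes −0.92 in HET and −0.97 in HOM heads. HOM heads called 292 of the higher genes higher (4 lower) and 505 of the lower genes lower (3 higher). Over all genes, HOM heads called 7.51% higher and 9.56% lower. HET heads called 9 of the higher and 8 of the lower genes the same way and 0 the opposite way. Over all 20482 genes tested, HET heads called only 13 higher and 14 lower.

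**Figure D5:**
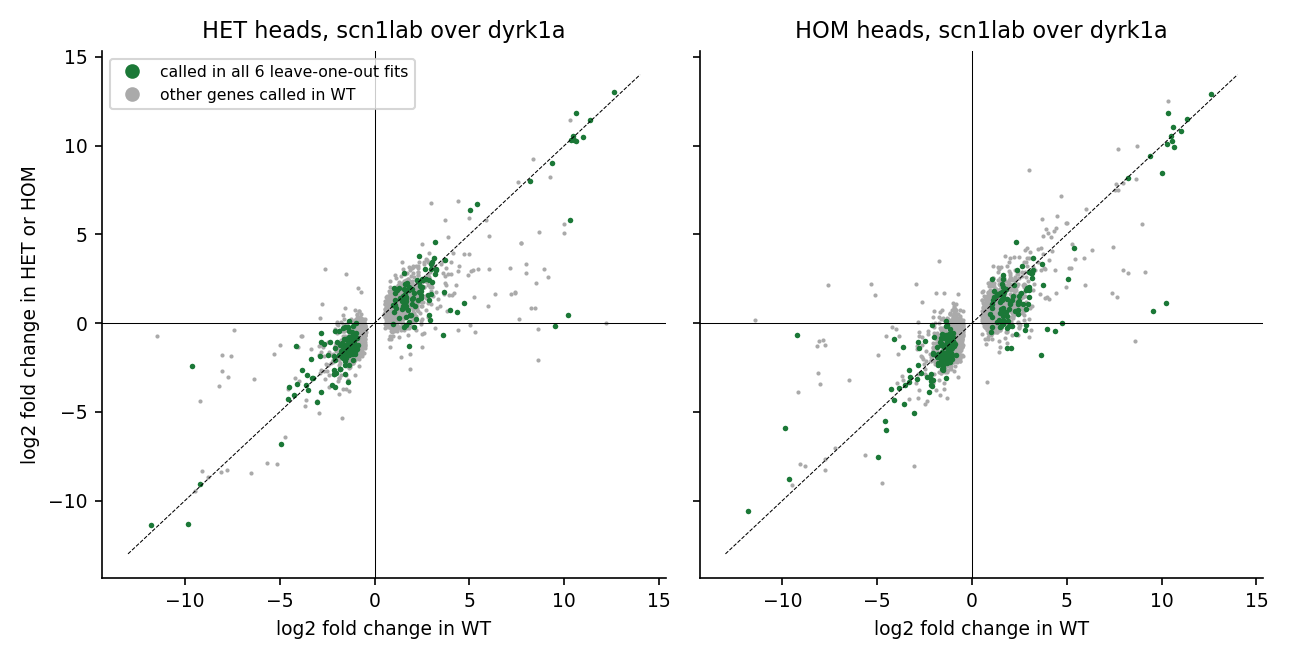
Log2 fold change, scn1lab over dyrk1a line, in HET heads (left) and HOM heads (right) against that in WT heads, for the genes called in WT (green, called in all 6 leave-one-out fits; grey, the rest; dashed, equal change). Most points lie in the quadrants of equal sign, and a few with a large WT change lie near 0 in the other genotypes.

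In WT, HET and HOM heads alike 14 genes were called the same way, 8 higher and 6 lower in the scn1lab line. KLHL21, a ubiquitin ligase adaptor of cell division, had 88.4, 91.5 and 48.1 CPM in scn1lab WT and 7.23, 6.86 and 9.99 CPM in dyrk1a WT (log2 3.24, SE 0.30, edgeR adjusted p = 0.00424), with 3.06 in HET and 2.97 in HOM heads. UBE2M, which conjugates the ubiquitin-like protein NEDD8, had 17.2, 21.4 and 16.5 CPM in scn1lab WT and 75.7, 91.1 and 76.7 CPM in dyrk1a WT (log2 −2.14, SE 0.16), with −2.86 in both HET and HOM heads. PURB (ENSDARG00000068822), a single-stranded nucleic acid binding protein, fell by 1.38 in WT, 3.30 in HET and 3.10 in HOM heads. FAIM (ENSDARG00000005828), an inhibitor of apoptosis, had 1.17, 0.253 and 1.05 CPM in scn1lab WT and 10.7, 24 and 24.4 CPM in dyrk1a WT (log2 −4.57, SE 0.61). The others were zgc:73226, zgc:111983, dsc2l, si:dkey-19a16.7, si:dkeyp-1h4.8, si:ch211-59h6.1, si:ch211-222k6.2, si:ch211-133n4.6 and the unnamed ENSDARG00000108525 and ENSDARG00000111788. The count of zgc:73226 was 55, 113 and 124 CPM in scn1lab WT and 2.09, 1.9 and 2.93 CPM in dyrk1a WT.

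Some genes had counts in 1 of the groups and none in the other. At 0 counts in every dyrk1a WT head and at least 10 counts in every scn1lab WT head were 80 genes, and 28 genes showed the reverse. Across all genotypes, 11 genes were at 0 in every dyrk1a-line head with at least 10 counts in every scn1lab-line head, and 3 showed the reverse, all chosen after their values were seen. Of the 11, si:dkey-19a16.7 had 46.1, 22.5 and 34 CPM in scn1lab WT, with a mean 242-fold above the floor of 3 counts in dyrk1a WT. The 3 were TMCC1, ENSDARG00000115195 and ENSDARG00000108525, and the last had 17.6, 19.5 and 20.3 CPM in dyrk1a WT and 0 in scn1lab WT, at least 157-fold lower in scn1lab WT.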

How the data were processed

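The deposited tables hold raw counts of reads per gene, 1 table per library, as whole numbers for the same 32020 gene IDs. Per the submitters' processing notes, Trim Galore 0.5.0, HISAT2 2.1.0, StringTie 1.3.3b and DESeq2 1.22.1 were used with GRCz11. A reference table pairs 28975 IDs with a symbol, in a mix of human and zebrafish names, and 6133 IDs share theirs. Planned levels per length, chromosomes and promoter motifs are not analysed here.

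The 6 WT libraries were filtered by filterByExpr, scaled by TMM and tested by a robust quasi-likelihood F test (two-sided) in edgeR 4.0.16 under R 4.3.3, with a call at a Benjamini-Hochberg adjusted p under 0.05. SE was computed back from the log2 change and F. HET and HOM libraries had fits of their own. Nothing says whether heads of a group came from separate crosses, so p-values measure the spread between these heads. Shares of counts have 95% Wilson intervals within 0.0106 percentage points, which like the floor of 3 counts cover counting error only. List shares were compared by exact permutation in scipy 1.17.1. The tests were tested on simulated data. Alternatives were DESeq2 1.42.0, limma 3.58.1 voom, other scalings and filters, a 2-fold threshold, a replicate block and leaving out each head.

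The 43 gene lists, their members and the tests were chosen with earlier results of these data known. Of 1528 entries, 1014 matched a symbol directly, 367 without the zebrafish copy letter, 17 as patterns and 130 not at all, so a list can hold both copies of a gene. Named genes are the 20 of largest share, the 15 of largest fold in each direction (1 CPM in the higher group, no overlap, no clone name), up to 4 called members per list by p, 4 abundant members per list, the most and least variable genes, those called in all genotypes and the mutated genes. Other called members were chosen after their values were seen. Some genes that this rule selects are not reported here.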

Additional observations from a re-analysis of the deposited data

Results flagged for a closer look

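In 7 cases the difference between the lines in WT heads itself differed from that in another genotype (edgeR, 1 fit of all 19 libraries, adjusted p under 0.05). The test was added after the data were seen.

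Against HET heads this held for egr4 (WT minus HET, 4.27 on the log2 scale, adjusted p = 0.0488). Against HOM heads it held for egr4 (5.38, adjusted p = 0.00241), FOS (4.81, adjusted p = 0.0278), BTG2 (3.47, adjusted p = 0.00451) and JUNB (ENSDARG00000104773; 2.3, adjusted p = 0.00894), all early genes that were highest in scn1lab WT heads. With all libraries scaled together, BTG2 had 176, 103 and 184 CPM in scn1lab WT heads and 20.7, 22.2 and 35.3 CPM in scn1lab HOM heads, and JUNB had 222, 150 and 292 CPM in scn1lab WT heads and 47.1, 41.7 and 58.7 CPM in scn1lab HOM heads.

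For zgc:122979 the difference was 4.1 (adjusted p = 0.00894, held in 4 of 6 leave-one-out fits). Its line contrast was 0.81 in WT heads and −3.31 in HOM heads. For anxa1c, an annexin gene, the difference was −2.42 (adjusted p = 0.0286), and it passed in 0 of the 6 leave-one-out fits, where the adjusted p ran from 0.0502 to 0.172. It had 104, 112 and 119 CPM in scn1lab WT heads and 759, 770 and 428 CPM in scn1lab HOM heads.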

How the results depend on the processing

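Of the counts of genes higher and lower in scn1lab WT (915 and 993), DESeq2 gave 2100 and 1830, a test against a 2-fold change 48 and 33, and 1 fit of all 19 libraries 219 and 248. Leaving out 1 head gave 163 to 590 higher and 142 to 635 lower. The same gave 0 to 73 higher and 0 to 94 lower in HET heads, 387 to 1329 higher and 782 to 1822 lower in HOM heads, 0 to 7 genes whose WT line difference differed from HET (1 with all heads) and 3 to 8 from HOM (6 with all heads). RLE and upper-quartile scaling, voom, no filter, 10 counts in every head and leaving out tissue list genes kept both counts within 1.5 times. The median of all genes lay between 0.02 and 0.07 on the log2 scale under every scaling, voom, DESeq2 and without those genes. Numbers 1 and 2 occur in both WT groups but belong to different lines. Across genes, deviations from the group mean correlated at r = −0.118 and −0.223 between same-numbered heads. Between heads of different number and group, r ran from −0.11 to 0.22. Genes are not independent replicates, and whether heads of the same number shared a batch was not tested. With a replicate block, which leaves 1 residual degree of freedom, edgeR called 0 higher and 0 lower, against 915 and 993 without it. Without the block, 5941 genes had an unadjusted p under 0.05. Of 158 named genes that passed, DESeq2 called 158, voom 144, the fit of all 19 libraries 51, the 2-fold test 22, the replicate block 0 and the leave-one-out fits 48 to 110, with no change of sign. The genes with a within-group SD over 1 numbered 831 at a pseudocount of 1, 1858 at 0.1 and 279 at 5. Genes near 0 are limited by depth, since 3 counts were the floor.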
